A study of Mus musculus with 30 samples.

Results

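Retinas of mice homozygous for either of 2 knock-in mutations of *Crx*, the cone-rod homeobox gene, were compared with each other at postnatal day 10 (P10). The *E168d2/d2* group carries a loss of 2 bases in the E168 codon on both alleles, which shifts the reading frame and truncates the activation domain. The *R90W/W* group carries a substitution in codon 90 on both alleles, within the DNA-binding homeodomain. Both lines are C57BL6/J, the mutations are in the germline and so in every cell, and each group had 3 libraries (A, B and C), each labelled as a pool of 4 whole retinas, 2 male and 2 female. These 6 of the 30 mRNA sequencing libraries of the series were tested against each other. Of 12573 genes, 12056 were tested, those with 5 CPM or more (CPM, reads of a gene scaled to a common library total) in each library of at least 1 of the groups. Wild-type (WT) C57BL6/J retinas of the same age (3 libraries) served as the level to which both mutants are set, and entered no test between the mutants except the alternative that fits all P10 groups together.

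CRX is a homeodomain transcription factor of rods, cones and bipolar cells. Its homeodomain binds DNA, often at TAATCC-like sites near photoreceptor genes, and its carboxyl-terminal region activates transcription. Photoreceptors use it to reach mature levels of opsins, phototransduction enzymes and outer segment proteins, together with the rod factors NRL and NR2E3. In the mouse, P10 lies in the period when outer segments are growing and before the eyes open.

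Both mutations lie in exon 4 of *Crx* (mm9 chr7:16451296-16465317, minus strand). The reference windows below, read 5′ to 3′ on the coding strand, are shown because the comparison is between these 2 sites, and the capitals mark the affected codon.
R90 codon, chr7:16453729-16453776: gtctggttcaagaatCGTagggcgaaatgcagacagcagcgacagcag
E168 codon, chr7:16453495-16453557: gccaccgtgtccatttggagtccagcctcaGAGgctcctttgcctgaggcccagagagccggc
In the reference coding sequence of 299 codons, removing 2 neighbouring bases from the E168 codon brought a TGA stop into frame at codon 172, leaving 171 codons before it.

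Some libraries stood apart from their labels or from their group. *Xist*, the RNA that coats the inactive X chromosome in females, was at 1799, 3737 and 2.96 CPM in *E168d2/d2* A, B and C, and the Y-linked *Ddx3y* was at 43.9, 0 and 78.7 CPM. Replicates B and C therefore did not show the labelled mixture of sexes, whereas *R90W/W* held *Xist* at 1025 to 1393 CPM and *Ddx3y* at 46.3 to 53.2 CPM. *E168d2/d2* A had the most lens and blood RNA of the 6, with *Cryaa* (a lens crystallin) at 57.6 CPM against at most 1.61 and *Hbb-b1* (beta globin) at 228 CPM against 44.6 to 84.8. Reads on genes, estimated from the CPM steps, were 17400000 to 26200000 per library, so 5 CPM stood for 87.1 to 131 reads and 3 reads for 0.114 to 0.172 CPM. Of the 262 called genes (154 lower and 108 higher), 9 were on the X chromosome (5 lower and 4 higher) and 0 on Y. Of all 12056 genes tested, 416 were on X and 4 on Y.

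*Crx* itself was expressed in both mutants above WT. Its level was 2470.0, 2324 and 2301 CPM in *E168d2/d2*, 1886, 1902 and 1837 CPM in *R90W/W*, and 1538, 1601 and 1481 CPM in WT. All *E168d2/d2* libraries were above all *R90W/W* libraries, and these were above all WT libraries. The difference between the mutants was 0.33 on the log2 scale (SE 0.05, adjusted p = 0.00056), which is under the 2-fold limit used for calls. Both alleles carry the mutation in these homozygotes, so their *Crx* counts are of mutant transcripts. In heterozygotes, the 1 value per gene would not separate mutant from reference transcripts.

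The question put to these 6 libraries was which genes differ between a CRX that is truncated in its activation domain and a CRX with a changed homeodomain. A gene was called when its Benjamini-Hochberg adjusted p from limma was at most 0.05 and its change at least 2-fold on the log2(CPM + 0.1) scale. In *E168d2/d2*, 154 genes were lower than in *R90W/W* (1.28% of those tested) and 108 were higher (0.896%). Without *E168d2/d2* A the counts were 170 and 106, without B 156 and 117, and without C 158 and 113. By adjusted p alone, 1434 genes were lower (11.9%) and 2613 higher (21.7%), with a median difference over all genes of 0.05. All 262 called genes (2.17% of those tested) had 2 groups of libraries that did not overlap, as did 47.7% of all genes tested. The falls were larger: 48 of the 154 lower genes and 24 of the 108 higher genes changed at least 4-fold, and 26 and 8 changed at least 8-fold.

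**Figure D1:**
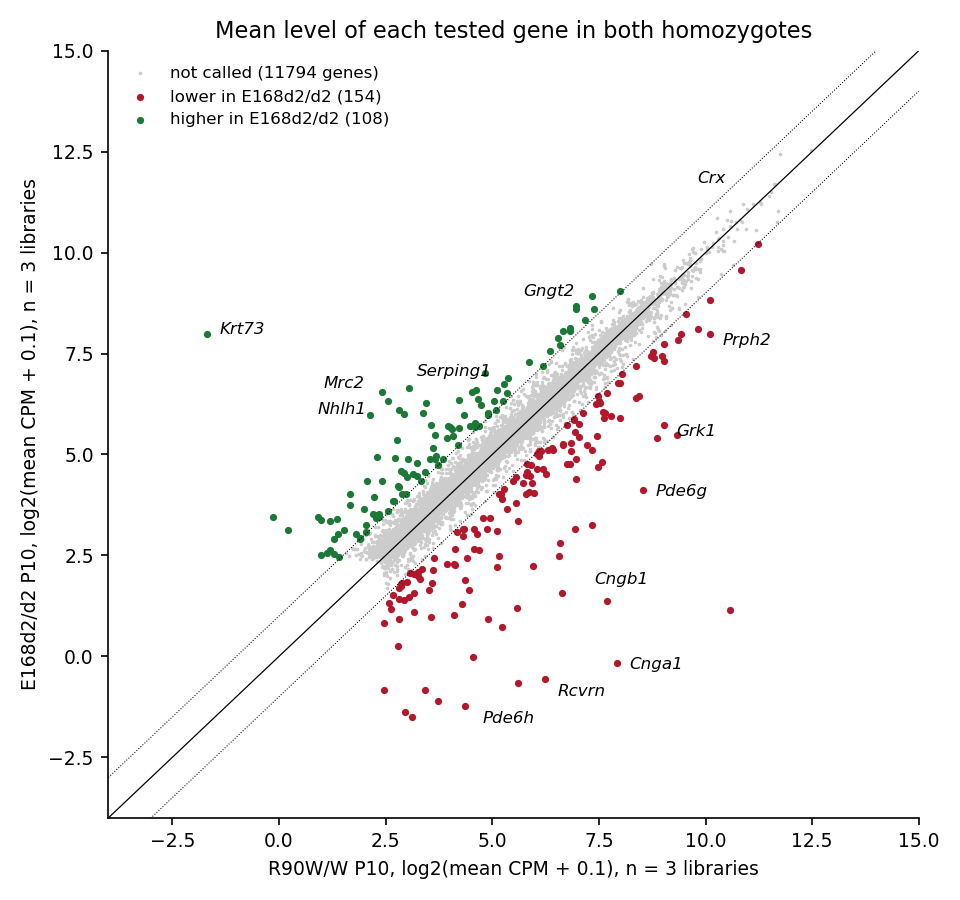
Each point is a tested gene, with log2(mean CPM + 0.1) over 3 libraries in *R90W/W* on the x axis and in *E168d2/d2* on the y axis, red for the 154 lower and green for the 108 higher called genes, a solid line for equal levels and dotted lines for 2-fold. *Cnga1* and *Rcvrn* lie far below the solid line and *Krt73* farthest above it.

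Rod phototransduction genes had the largest median difference among the fixed lists. Of 20 members tested, 15 were called lower in *E168d2/d2* and 0 higher, against 1.28% and 0.896% of all genes. By adjusted p alone all 20 were lower, against 11.9% of all genes. The median difference of the list was -2.96 on the log2 scale, against 0.05 over all genes. Set against WT, the median member was at -3.97 in *E168d2/d2* and -0.70 in *R90W/W* (log2). Under 50% of WT were 19 of the 20 in *E168d2/d2* and 8 in *R90W/W*, against 328 and 136 of all 12056 genes tested. In bulk retina, fewer cells of a type and less RNA per cell cannot be told apart.

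The subunits of the rod cyclic nucleotide-gated channel, which carries the light-sensitive current, were close to absent in 1 mutant and not in the other. *Cnga1* was at 1.03, 0.861 and 0.501 CPM in *E168d2/d2* and at 246, 246 and 231 CPM in *R90W/W*, where WT had 390.3 to 422 CPM. *Cngb1*, the second subunit, was at 2.56, 1.67 and 3.23 CPM against 208, 208 and 203 CPM, with 314 to 329.7 CPM in WT. Both genes kept more than 50% of the WT level in *R90W/W* (58.8% and 64.5%) and less than 1% in *E168d2/d2* (0.195% and 0.777%). The differences were -8.12 for *Cnga1* (adjusted p = 6.7e-10) and -6.37 for *Cngb1* (adjusted p = 3.1e-09).

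The enzymes and regulators of the cascade showed a graded set of levels. *Pde6g*, the inhibitory subunit of the rod phosphodiesterase, was at 16.8, 17.1 and 18.2 CPM in *E168d2/d2* and 375, 377 and 365 CPM in *R90W/W* (log2 difference -4.42, adjusted p = 2.9e-12). The catalytic subunits of the same enzyme differed from each other. *Pde6a* kept 0.984% of WT in *E168d2/d2* and 17.1% in *R90W/W*, whereas *Pde6b* kept 20.002% and 65.7%. The retinal guanylate cyclases that restore cyclic GMP were both called, *Gucy2e* at 2.97% against 50.9% of WT and *Gucy2f* at 1.73% against 38.2%. *Grk1*, a kinase that shuts off photoactivated visual pigments, kept 7.25% of WT in *E168d2/d2* and 72.2% in *R90W/W*, a difference of -3.31. Arrestin (*Sag*), which quenches the activated visual pigment of photoreceptors, was at 31.8% against 75.7%.

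*Rcvrn*, the calcium sensor recoverin, was low in both mutants but not equally. It was at 0.707, 0.574 and 0.455 CPM in *E168d2/d2*, 74.0, 82.4 and 70.2 CPM in *R90W/W* and 547 to 565 CPM in WT, a difference of -6.81 between mutants (adjusted p = 3.3e-10). *R90W/W* thus held 13.6% of the WT level. *Rgs9*, which speeds the shut-off of transducin, lay above WT in *R90W/W* (117%) and below it in *E168d2/d2* (40.0%).

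The subunits of rod transducin did not share a pattern. *Gnat1* (mm9 chr9:107576808-107581923), the alpha subunit, was at 46.6, 42.6 and 39.5 CPM in *E168d2/d2*, 55.1, 63.9 and 57.4 CPM in *R90W/W* and 626 to 716 CPM in WT. The mutant groups did not overlap, yet both were close to the bottom of the WT scale, at 6.41% and 8.79%. Their difference was -0.46 (SE 0.07, adjusted p = 0.0011) and was not called, and in the fit of all P10 groups its adjusted p was 0.24. *Gnb1*, the beta subunit, was called at -1.02, a value close to the 2-fold limit that fell short of it without *R90W/W* C (-0.99) and after quantile normalization (-0.86). *Gngt1*, the gamma subunit, was at -0.95 and passed the limit without *E168d2/d2* A (-1.03). The other rod members not called were *Rgs9bp* (-0.58), *Gnb5* (-0.44) and *Pdc* (-0.96), all 3 lower by adjusted p. *Pdc*, which encodes phosducin, passed the limit at -1.01 after trimmed mean or median scaling and at -1.02 without *E168d2/d2* A.

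**Figure D2:**
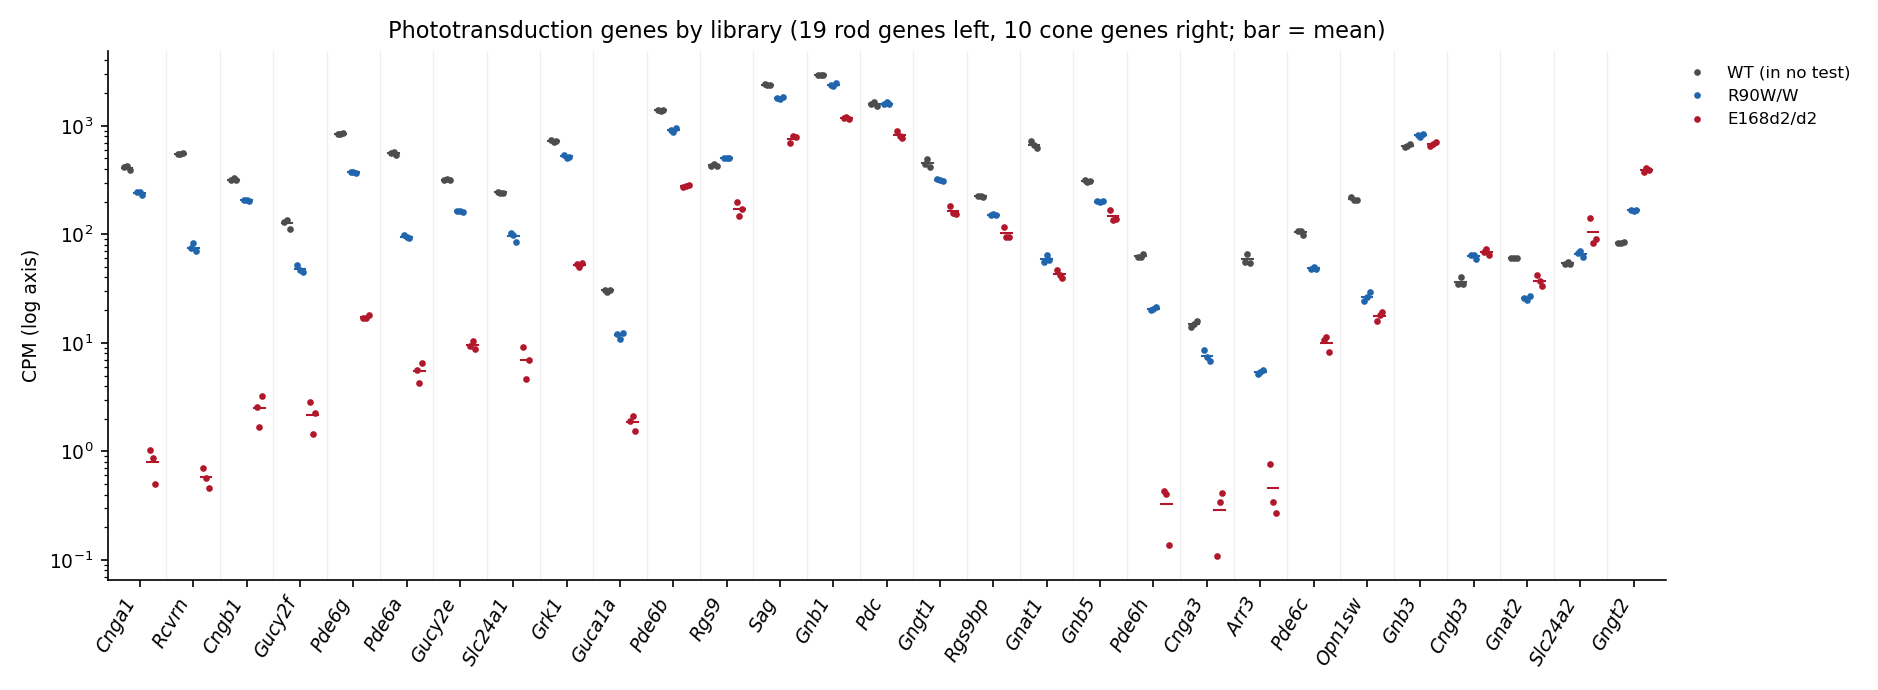
CPM at P10 (y axis, log scale) of 19 rod genes (left) and 10 cone genes (right), with points for the 3 libraries and bars for the mean of WT (grey), *R90W/W* (blue) and *E168d2/d2* (red), ordered within each set by the difference between mutants. *R90W/W* lies between WT and *E168d2/d2* for most rod genes, *Gnat1* is low in both mutants, and *Gngt2* is highest in *E168d2/d2*.

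Cone phototransduction genes moved in both directions. Of 10 members tested, 4 were called lower in *E168d2/d2* (*Pde6h*, *Cnga3*, *Arr3* and *Pde6c*) and 1 higher (*Gngt2*), with a median difference of -0.42 against 0.05 over all genes, where 1.28% were called lower and 0.896% higher. Each mutant had 5 members under 50% of the WT level, against 328 of all 12056 genes tested in *E168d2/d2* and 136 in *R90W/W*.

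*Pde6h*, the inhibitory subunit of the cone phosphodiesterase, was at 0.435, 0.402 and 0.137 CPM in *E168d2/d2*, 20.1, 20.5 and 21.2 CPM in *R90W/W* and 61.2 to 65.4 CPM in WT (difference -5.70, adjusted p = 1.2e-07). *Cnga3*, the cone channel subunit, was at 0.109, 0.345 and 0.410 CPM against 8.62, 7.43 and 6.79 CPM (difference -4.41, adjusted p = 1.9e-06). Some *E168d2/d2* values of both genes were at or near the 3-read level, so the fitted folds depend on the pseudocount. *Arr3*, cone arrestin, was at 0.781% of WT in *E168d2/d2* and 9.14% in *R90W/W*, a difference of -3.39. With a pseudocount of 1 CPM the differences of *Cnga3* and *Arr3* were -2.74 and -2.14, both still called. *Pde6c*, the catalytic subunit, kept 9.66% and 46.5% of WT.

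Cone opsins were low in both mutants. *Opn1sw*, the short-wavelength opsin, was at 15.8, 18.0 and 19.3 CPM in *E168d2/d2* and 24.3, 26.3 and 29.2 CPM in *R90W/W*, where WT had 206 to 219.8 CPM. The groups did not overlap, and the difference of -0.58 (adjusted p = 0.00092) was under 2-fold. *Opn1mw*, the middle-wavelength opsin, was under the test limit in both mutants, at 0.364 to 0.517 CPM in *E168d2/d2* and 0.572 to 0.877 CPM in *R90W/W*, against 21.1 to 25.9 CPM in WT.

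The other cone members had 1 call and mixed directions. *Gngt2* (mm9 chr11:95698530-95707048), the gamma subunit of cone transducin, was at 375, 409 and 390.4 CPM in *E168d2/d2*, 167.5, 163.55 and 167.9 CPM in *R90W/W* and 82.4 to 85.6 CPM in WT. *E168d2/d2* was the highest group and WT the lowest, and the difference was 1.23 (SE 0.04, adjusted p = 1.3e-08). *Gnat2*, the cone alpha subunit, was at 42.1, 37.3 and 33.1 CPM against 25.8, 24.7 and 27.1 CPM, both below WT (60.01 to 60.8 CPM), with a difference of 0.53 (adjusted p = 0.001). *Cngb3*, the second cone channel subunit, was at 188% of WT in *E168d2/d2* and 171% in *R90W/W* (difference 0.13, adjusted p = 0.11). *Slc24a2*, the cone sodium-calcium-potassium exchanger, was at 0.62 (adjusted p = 0.011), with *E168d2/d2* A at 141 CPM above B and C at 83.6 and 90.6 CPM, and it was at 0.39 without A and no longer passed without *R90W/W* C (0.57, adjusted p = 0.053). *Gnb3*, the cone beta subunit, was lower in *E168d2/d2* (-0.26, adjusted p = 0.0016).

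Of the 7 visual cycle genes of photoreceptors tested, 2 were called lower and 0 higher, against 1.28% and 0.896% of all genes. By adjusted p alone 3 were lower and 1 higher, against 11.9% and 21.7%. *Rdh12*, a retinol dehydrogenase of the inner segment, was at 3.05, 2.93 and 2.55 CPM in *E168d2/d2* and 97.5, 104 and 94.6 CPM in *R90W/W*, with 227 to 230.2 CPM in WT. *Rdh8*, the outer segment dehydrogenase, was at 0.109, 0.287 and 0.364 CPM against 8.62, 9.44 and 7.78 CPM, with 67.3 to 70.6 CPM in WT. The differences were -5.07 and -4.70, and neither gene's groups overlapped. That of *Rdh8* was -2.94, still called, with a pseudocount of 1 CPM. *Rbp3*, the retinoid carrier of the space outside photoreceptors, was at -0.93, short of the limit, and *Abca4*, the outer segment flippase, was higher in *E168d2/d2* (0.41, adjusted p = 3.5e-05) although both mutants were under 50% of WT. *Rdh10* and *Rdh11* differed by -0.02 each (adjusted p = 0.68 and 0.86).

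Of 30 outer segment and cilium genes, 15 were called lower in *E168d2/d2* and 0 higher, against 1.28% and 0.896% of all genes, and 27 were lower by adjusted p alone, against 11.9% (median -1.04). Under 50% of WT were 23 of them in *E168d2/d2* and 6 in *R90W/W*, against 328 and 136 of all 12056 genes tested. *Tulp1*, which acts in protein transport to the outer segment, was at 35.4, 47.7 and 51.5 CPM in *E168d2/d2*, 623, 685 and 637 CPM in *R90W/W* and 979.8 to 1107 CPM in WT (difference -3.87, adjusted p = 3.6e-09). *Kcnv2*, a potassium channel subunit of the inner segment, kept 7.94% against 36.9%. *Prph2*, the disc rim protein peripherin 2, kept 15.6% against 67.9%.

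Of 20 photoreceptor synapse genes, 9 were called lower and 0 higher, against the same 1.28% and 0.896%, with a median of -0.87. *Cabp4*, a calcium-binding regulator of the presynaptic calcium channel, was at 2.07, 1.61 and 1.73 CPM in *E168d2/d2* and 30.6, 30.5 and 27.5 CPM in *R90W/W*, with 56.5 to 60.1 CPM in WT (difference -3.97, adjusted p = 3.5e-09). *Lrit1* and *Lrit2*, which encode leucine-rich repeat membrane proteins, differed by -2.82 and -1.40. *Slc17a7*, the vesicular glutamate transporter of photoreceptors, was at 29.5% of WT against 84.9%.

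Of 24 transcription regulators of photoreceptors tested, 2 were called lower and 0 higher, against 1.28% and 0.896% of all genes. By adjusted p alone 15 were lower and 6 higher, against 11.9% and 21.7% (median -0.24). *Pias3*, a SUMO ligase that acts with CRX and NR2E3, was at 73.8, 89.1 and 90.2 CPM in *E168d2/d2*, 329, 325 and 337 CPM in *R90W/W* and 466 to 479 CPM in WT (difference -1.97, adjusted p = 1.3e-08). *Esrrb*, an orphan nuclear receptor of rods, was at 4.08, 4.42 and 5.74 CPM against 18.5, 16.7 and 16.4 CPM, with 75.2 to 81.6 CPM in WT (difference -1.85, adjusted p = 1.8e-06).

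The rod factors themselves were below WT in both mutants. *Nrl* was at 52.6% of WT in *E168d2/d2* and 70.2% in *R90W/W* (difference -0.42, adjusted p = 0.00037). *Nr2e3* was at 74.2% and 87.4% (-0.24, adjusted p = 0.0028), but after quantile normalization the difference was -0.06 (adjusted p = 0.36). *Otx2*, the homeobox gene that acts upstream of *Crx*, was above WT in both, at 127% and 163% (-0.36, adjusted p = 0.00056). *Samd7*, a rod repressor, was at 303% and 394% of WT (-0.38, and -0.24 after quantile normalization).

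*Rxrg*, a nuclear receptor of cones, was at 82.9 to 86.5 CPM in *E168d2/d2* and 65.6 to 72.1 CPM in *R90W/W*, against 11.003 to 13.98 CPM in WT. The groups did not overlap and differed by 0.28 (adjusted p = 0.0017). *Prdm1*, a repressor of the bipolar fate, was at 154% of WT in *E168d2/d2* and 106% in *R90W/W* (0.53, adjusted p = 0.0004). *Ppara* and *Pax7* were below the test limit in both mutants, with at most 1.20 and 0.638 CPM in the 6 libraries against 16.6 to 19.3 and 16.5 to 17.6 CPM in WT.

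Among the largest falls that the lists above do not hold were *BC016201*, *Gpr152* and *Gm626*. *BC016201* was at 0.707, 0.345 and 0.546 CPM in *E168d2/d2* and 48.5, 48.3 and 48.2 CPM in *R90W/W* (difference -6.30), and WT had 72.9 to 80.8 CPM. *Gpr152*, an orphan receptor, differed by -4.85 and *Gm626* by -4.57. All 3 genes were at most at 1.002 CPM in each *E168d2/d2* library. *BC016201* (mm9 chr8:97814493-97830485) lies close to *Cngb1* (chr8:97762945-97808081), both on the minus strand. *Gpr152* (chr19:4139784-4145738) lies close to *Cabp4* (chr19:4135425-4139609), on opposite strands. Whether these falls are separate from those of their neighbours was not tested.

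Genes of inner retinal neurons had no called member, against 1.28% called lower and 0.896% called higher over all genes. By adjusted p alone, 11.9% of all genes were lower and 21.7% higher. Of 18 bipolar genes, 9 were lower and 1 higher by adjusted p alone (median -0.26). Amacrine genes had 7 of 11 lower and 0 higher, and horizontal cell genes 4 of 6 lower and 0 higher (medians -0.18 and -0.42). Of 12 ganglion cell genes, 0 were lower and 2 higher (median 0.03). Summed over each list, *E168d2/d2* had 2524 to 2594 CPM of bipolar RNA against 3084 to 3249 CPM in *R90W/W*, and 87.2 to 97.1 CPM of horizontal RNA against 116.7 to 118.8 CPM. WT had 2971 to 3023 CPM of bipolar and 118.5 to 121.1 CPM of horizontal RNA. Amacrine RNA was at 2192 to 2390 CPM against 2513 to 2590 CPM, both above WT (1990 to 2073 CPM). Ganglion cell RNA overlapped between the mutants, at 1311 to 1516 and 1290 to 1397 CPM, both above WT (1094 to 1163 CPM).

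Of 15 Müller glia genes, 1 was called higher, against 0.896% of all genes, and 7 were higher by adjusted p alone, against 21.7% (median 0.24). The called member was *Sox9*, a glial transcription factor, at 69.7, 62.0 and 56.5 CPM in *E168d2/d2* and 28.1, 31.7 and 29.6 CPM in *R90W/W* (difference 1.07), which fell to 0.99 without *E168d2/d2* A. The summed Müller list was at 4784 CPM in that library, against 3519 and 3664 CPM in B and C and 3179 to 3383 CPM in *R90W/W*. Glial stress genes had 3 of 6 higher by adjusted p alone, microglial genes 1 of 7 and vessel genes 7 of 12, against 21.7% of all genes. Of the members tested in these lists 0 were called, against 1.28% lower and 0.896% higher over all genes. The deposited values held only 8 of the 17 glial stress and 8 of the 15 microglial genes listed, so most members of these lists were not tested.

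Pigment epithelium genes had 7 of 11 higher by adjusted p alone, against 21.7% of all genes, and 1 called, against 0.896%. That gene was *Rpe65*, the isomerase of the visual cycle. Its 3 *E168d2/d2* libraries were uneven, at 17.2, 5.63 and 8.97 CPM, against 5.48, 3.61 and 5.15 CPM in *R90W/W*. The call was lost under 11 of 16 alternative settings, and without *E168d2/d2* A the difference was 0.60. The summed list was at 309.5 to 434.5 CPM in *E168d2/d2* and 272.4 to 286.8 CPM in *R90W/W*. The part of carried-over pigment epithelium in the genes higher in *E168d2/d2* was not tested. Blood genes had 0 of 5 past the adjusted p (median 0.65), and all 9 lens genes in the table were below the test limit.

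The calls in other lists stand against 1.28% lower and 0.896% higher over all genes. Cell death and p53 genes had 0 of 12 called, unfolded protein and heat shock genes 0 of 8, clock genes 0 of 14 and genes of the mitochondrial genome 0 of 17. Among proliferation genes, *Ccna2* (cyclin A2) was the 1 call of 9, at 8.60, 8.33 and 9.61 CPM in *E168d2/d2* against 25.5, 32.5 and 29.97 CPM in *R90W/W*, where WT had 22.4 to 23.1 CPM. Among 20 glycolysis genes, *Hk2*, the hexokinase of photoreceptors, was the 1 call, at 19.0% of WT against 58.6%.

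Of 8 immediate early genes, 2 were called lower, against 1.28% of all genes. *Egr1* was at 22.9, 17.8 and 17.5 CPM in *E168d2/d2*, 65.7, 61.4 and 56.5 CPM in *R90W/W* and 19.0 to 22.1 CPM in WT, so that *E168d2/d2* overlapped WT and *R90W/W* stood above both. *Nr4a1* was below WT in both, at 29.1% and 67.7%. Collagen genes had 1 of 32 called lower and 4 higher, against 1.28% and 0.896% of all genes. *Col16a1* was at 267, 258 and 268 CPM in *E168d2/d2*, 99.1, 94.3 and 107 CPM in *R90W/W* and 4.17 to 5.08 CPM in WT, and thus lay above WT in both mutants and farther in *E168d2/d2* (difference 1.40, adjusted p = 1.5e-08). *Col5a3* was the collagen called lower, at 3.24% of WT against 20.2%.

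The largest rise in *E168d2/d2* was that of *Krt73*, a type II keratin known from the inner root sheath of hair (mm9 chr15:101623739-101632774). It was at 289.9, 238 and 228 CPM in *E168d2/d2* and at 0.425, 0.0516 and 0.153 CPM in *R90W/W*, around the 3-read level. The highest of the other 27 libraries of the series had 1.33 CPM, in *E168d2/+* at P10. The fitted difference was 9.85 (SE 0.34, adjusted p = 1.3e-08), and its size depends on the pseudocount.

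Next came *Mrc2*, *Slc27a2*, *Nhlh1*, *2010001M09Rik* and *Serping1*. *Mrc2*, a collagen-binding endocytic receptor, was at 143, 61.2 and 76.3 CPM in *E168d2/d2* with A the highest, and 4.47, 4.75 and 6.56 CPM in *R90W/W* (difference 4.05). *Slc27a2*, a fatty acid transporter, was at 58.7, 62.8 and 68.2 CPM against 4.63, 3.30 and 5.00 CPM (difference 3.86). *Nhlh1*, a neuronal basic helix-loop-helix factor, was at 86.5, 75.9 and 76.4 CPM against 4.89, 5.98 and 6.48 CPM (difference 3.77). None of these groups overlapped.

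*Serping1*, the C1 inhibitor of the complement cascade, was at 101, 95.6 and 103 CPM in *E168d2/d2*, 7.77, 8.66 and 7.97 CPM in *R90W/W* and 5.43 to 6.83 CPM in WT, with a difference of 3.60 (SE 0.06, adjusted p = 1.1e-10). The highest value elsewhere in the series was 13.99 CPM, in *E168d2/+* at P21. *Cyyr1*, *A930018M24Rik*, *Atp4a* (a proton pump subunit) and *Klhl33* completed the 10 largest rises, with differences of 3.30, 3.05, 2.87 and 2.83. Not all 10 were confined to *E168d2/d2*. A library of *E168d2/+* at P10 reached 13.18 CPM for *2010001M09Rik*, against 9.41 to 11.97 CPM in *E168d2/d2*. For *Atp4a* the highest *E168d2/+* library at P10 had 9.34 CPM, against 6.09 to 10.22 CPM. Of the 108 higher genes, 26 were under 5 CPM in every *R90W/W* library and 27 under 5 CPM in every WT library.

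**Figure D3:**
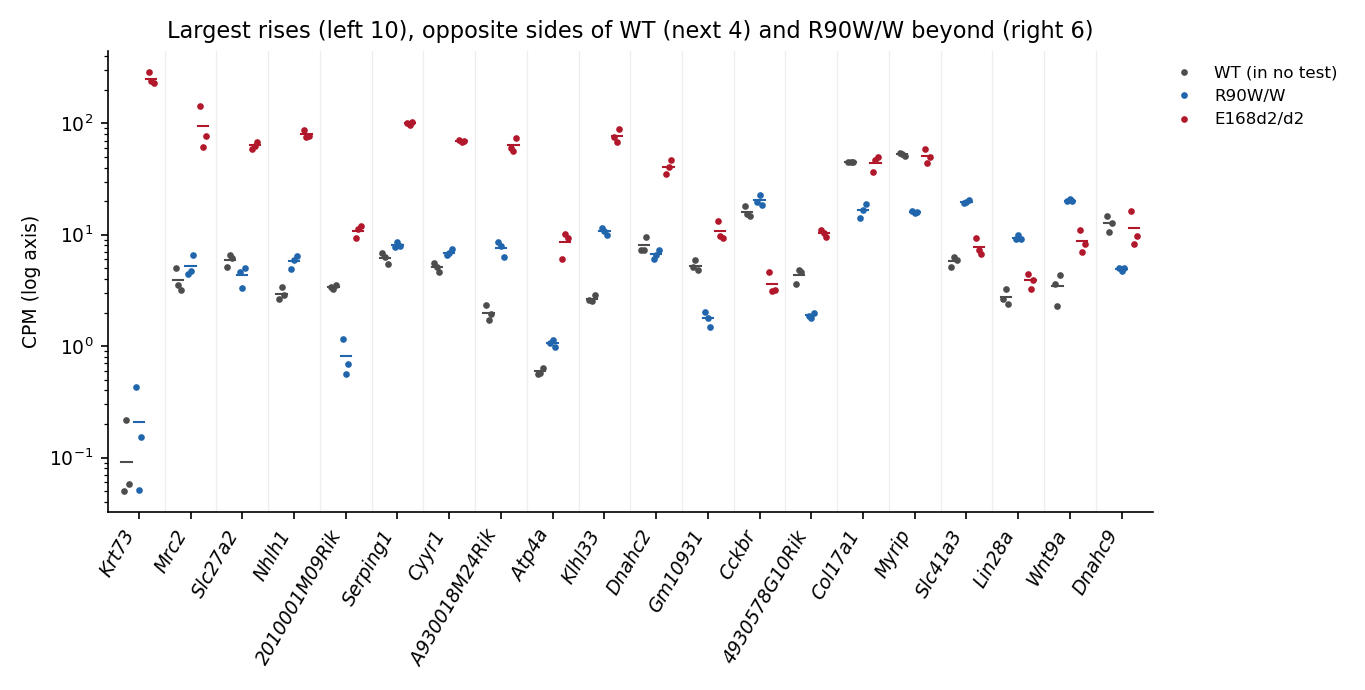
CPM at P10 (y axis, log scale) of the 10 largest rises in *E168d2/d2* over *R90W/W* (left), of other genes with the mutants on opposite sides of WT (middle) and of 6 genes with *R90W/W* farther from WT on the same side (right). Points show the 3 libraries and bars the means, with a listed 0 drawn at 0.05 CPM. *Krt73* lies between 228 and 289.9 CPM in *E168d2/d2* and at or under 0.425 CPM in the other 6 libraries, and *Myrip* lies lowest in *R90W/W*.

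Relative to WT, *E168d2/d2* was the mutant farther away for most called genes on 1 side of WT. Among the 154 lower genes, *E168d2/d2* lay beyond *R90W/W* on the same side of WT for 115. The mutants lay on opposite sides for 35, and *R90W/W* was farther on the same side for 4. Among the 108 higher genes these numbers were 57, 46 and 5. Genes on opposite sides of WT were not ranked by their distance from it. These positions rest on means of 3 libraries and on the same *E168d2/d2* and *R90W/W* values as the calls. The median lower gene was at 20.7% of WT in *E168d2/d2* and 65.0% in *R90W/W*, and the median higher gene at 284% and 103%.

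The 9 genes for which *R90W/W* was farther from WT on the same side as *E168d2/d2* include *Myrip*, a motor adaptor of melanosomes and vesicles. It was at 58.5, 44.4 and 50.1 CPM in *E168d2/d2*, 16.2, 15.8 and 15.9 CPM in *R90W/W* and 51.2 to 54.0 CPM in WT, so that the *E168d2/d2* libraries lay on either side of the WT range and all *R90W/W* libraries far below it (difference 1.66, adjusted p = 3.0e-07). *Col17a1*, a transmembrane collagen, followed the same order, at 98.0% of WT in *E168d2/d2* and 37.2% in *R90W/W*. *Slc41a3*, *Lin28a* and *Wnt9a*, a Wnt ligand, were above WT in both mutants and more so in *R90W/W*, at 341%, 342% and 588% of WT against 135%, 142% and 255%. *Dnahc9*, an axonemal dynein, was at 90.1% of WT against 38.7%, with *E168d2/d2* A at 16.4 CPM and B and C at 8.33 and 9.74 CPM, and without A its difference was 0.85, under the limit.

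Among genes on opposite sides of WT, *Cckbr*, a cholecystokinin receptor, was at 22.8% of WT in *E168d2/d2* and 128% in *R90W/W*. *Dnahc2*, another dynein, was at 35.3, 40.1 and 46.7 CPM in *E168d2/d2* and 6.06, 6.60 and 7.36 CPM in *R90W/W*, where WT had 7.26 to 9.57 CPM. *2010001M09Rik*, *Gm10931* and *4930578G10Rik* were above WT in *E168d2/d2* (322%, 204% and 237%) and below it in *R90W/W* (23.9%, 33.6% and 43.3%).

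How much of the WT level each mutant kept was then counted for the 11827 genes with at least 5 CPM in every WT library, with limits of 25% and 50% chosen after the values were seen. Under 25% in *E168d2/d2* and at 50% or more in *R90W/W* were 49 genes, among them *Cnga1*, *Cngb1*, *Gucy2e*, *Cabp4*, *Tulp1*, *Grk1*, *Prph2* and *Pias3*. Between these limits in *R90W/W* lay 53 genes, *Pde6h* and *Pde6g* among them. Under 25% in both mutants were 38 genes, including *Gnat1*, *Opn1sw*, *Opn1mw*, *Rcvrn*, *Arr3*, *Rdh8*, *Pde6a* and *Esrrb*. In the reverse sense, 4 genes were under 25% in *R90W/W* and at 25% to 50% in *E168d2/d2*, and 0 were under 25% in *R90W/W* and at 50% or more in *E168d2/d2*.

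**Figure D4:**
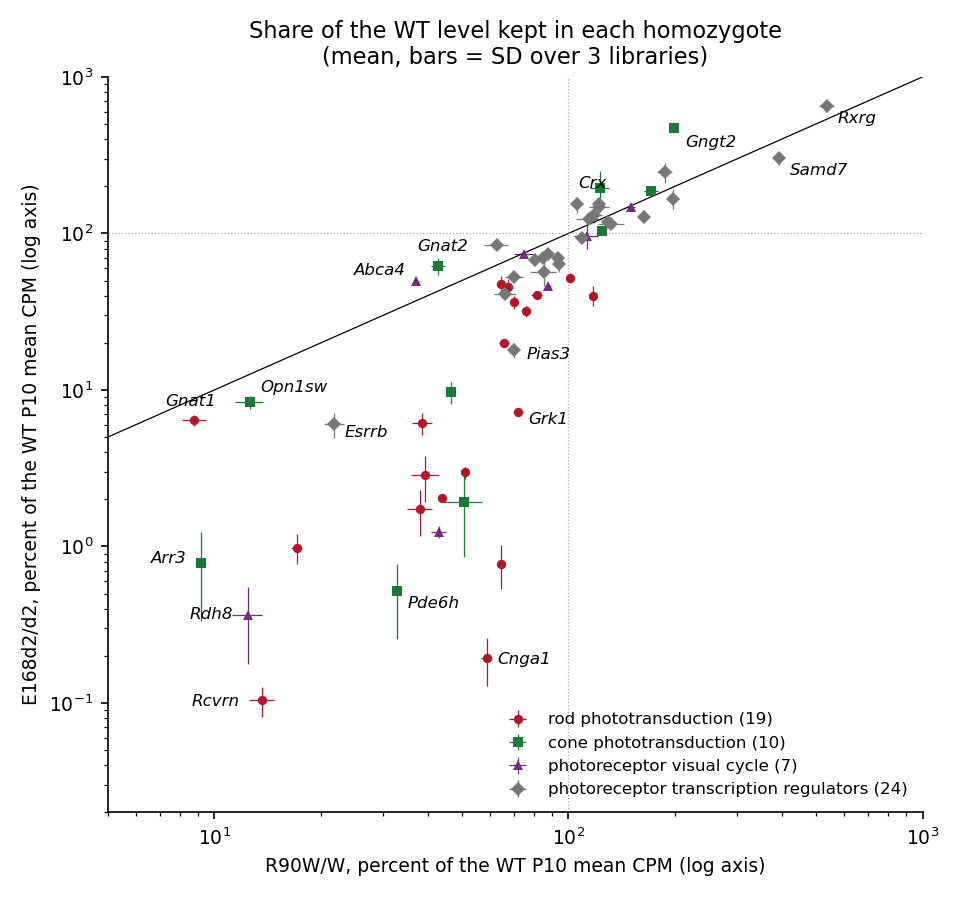
Percent of the WT P10 mean kept in *R90W/W* (x axis) and *E168d2/d2* (y axis), both on log scales, for 19 rod and 10 cone phototransduction genes, 7 visual cycle genes and 24 transcription regulators, with bars for the SD over 3 libraries and a line for equal shares. *Cnga1* and *Rcvrn* lie far below the line, *Gnat1* and *Opn1sw* lie near it at the low end, and most regulators lie near it around 100%.

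Lists of genes enriched in rods or in cones, which the study took from published retinas lacking or holding *Nrl*, were not chosen on these 6 libraries. Of 215 rod-enriched genes tested, 44 were called lower and 4 higher (median -0.32). Of 376 cone-enriched genes tested, 14 were called lower and 31 higher (median 0.14), against 1.28% and 0.896% of all genes. Among the largest differences of rod-enriched genes were *Cnga1*, *Rcvrn* and *Cngb1*, and the 4 largest of cone-enriched genes were *Pde6h*, *Cnga3*, *Arr3* and *A930018M24Rik*, the last of them higher. These lists share genes with the phototransduction lists. The cone-enriched list also holds members of the pigment epithelium, collagen and immediate early lists. Among these were *Rpe65* and *Col17a1*, called higher, and *Egr1* and *Nr4a1*, called lower.

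The motif TAATCC, the letters of a CRX-type site, was searched on both strands in the 100 bases before gene starts (RefSeq windows, GRCm38.p6). It was found in 2.30% of 32851 windows. Only 74.7% of the lower and 65.7% of the higher genes had a window, so no comparison of gene sets was made. The windows of 3 lower and 2 higher genes, picked after their motifs were seen, are shown with each TAATCC, or its reverse complement GGATTA, in capitals. That choice fixed which of them hold a match, so they say nothing about lower against higher genes.
*Cngb1*, chr8:95306586-95306685, minus strand: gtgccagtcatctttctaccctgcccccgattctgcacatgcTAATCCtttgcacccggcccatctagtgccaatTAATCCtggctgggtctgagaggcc
*Gucy2e*, chr11:69237023-69237122, minus strand: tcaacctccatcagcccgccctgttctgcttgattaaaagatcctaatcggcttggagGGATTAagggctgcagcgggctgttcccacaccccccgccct
*Sag*, chr1:87803580-87803679, plus strand: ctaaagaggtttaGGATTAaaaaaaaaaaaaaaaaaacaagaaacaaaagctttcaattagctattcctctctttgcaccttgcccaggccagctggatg
*Krt73*, chr15:101802361-101802460, minus strand: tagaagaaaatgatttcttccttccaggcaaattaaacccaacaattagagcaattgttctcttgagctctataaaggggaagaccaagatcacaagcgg
*Nhlh1*, chr1:172057597-172057696, minus strand: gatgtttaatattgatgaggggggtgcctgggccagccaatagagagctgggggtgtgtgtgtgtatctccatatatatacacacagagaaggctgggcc
*Cngb1* held 2 matches, 58 and 25 bases before its start, *Gucy2e* 1 at 42 bases and *Sag* 1 at 87 bases, while the *Krt73* and *Nhlh1* windows held none of these letters. A match is a description of the sequence and not a measured binding site.

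The same pair of alleles was also compared in heterozygotes at P10 (*E168d2/+* against *R90W/+*, 3 libraries each), which share no library with the homozygotes. Of 11979 genes tested, 71 were called lower in *E168d2/+* (0.593%) and 41 higher (0.342%). In both comparisons 42 genes were called lower, 27.3% of the homozygous and 59.2% of the heterozygous list, and 21 were called higher, 19.4% and 51.2%. No gene was called in opposite directions. Of the lower genes of the homozygotes, 149 of the 152 tested in heterozygotes had the same sign, with a median of -0.55 against -1.58 in homozygotes, and of the higher genes 79 of 89, with 0.54 against 1.39. Over all 11854 genes tested in both, 70.0% had the same sign.

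Lens RNA was uneven among these libraries, with *Cryaa* at 1562 CPM in *E168d2/+* C and 604 CPM in *R90W/+* C, against at most 8.71 CPM in the other 4, and its part in the values was not tested. *Rcvrn* and *Cngb1* differed by -3.52 and -1.06, and *Slc27a2* and *Atp4a* by 2.93 and 2.87. *Pde6h*, at 1.71 to 2.99 CPM in *E168d2/+* and 56.999 to 62.2 CPM in *R90W/+*, differed by -4.63.

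For several genes the values in heterozygotes and homozygotes lay apart. *Gnat1* was at -2.32 in heterozygotes (adjusted p = 0.0034), where *E168d2/+* had 73.5 to 239.8 CPM and *R90W/+* 505 to 963 CPM, and at -0.46 in homozygotes. *Cngb3* was at 1.39 and *Rxrg* at 1.19 in heterozygotes, against 0.13 and 0.28 in homozygotes. *Serping1* was at 0.02 in heterozygotes (adjusted p = 0.94), with all 6 libraries at 6.27 to 7.74 CPM. These differences between zygosities were not tested.

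**Figure D5:**
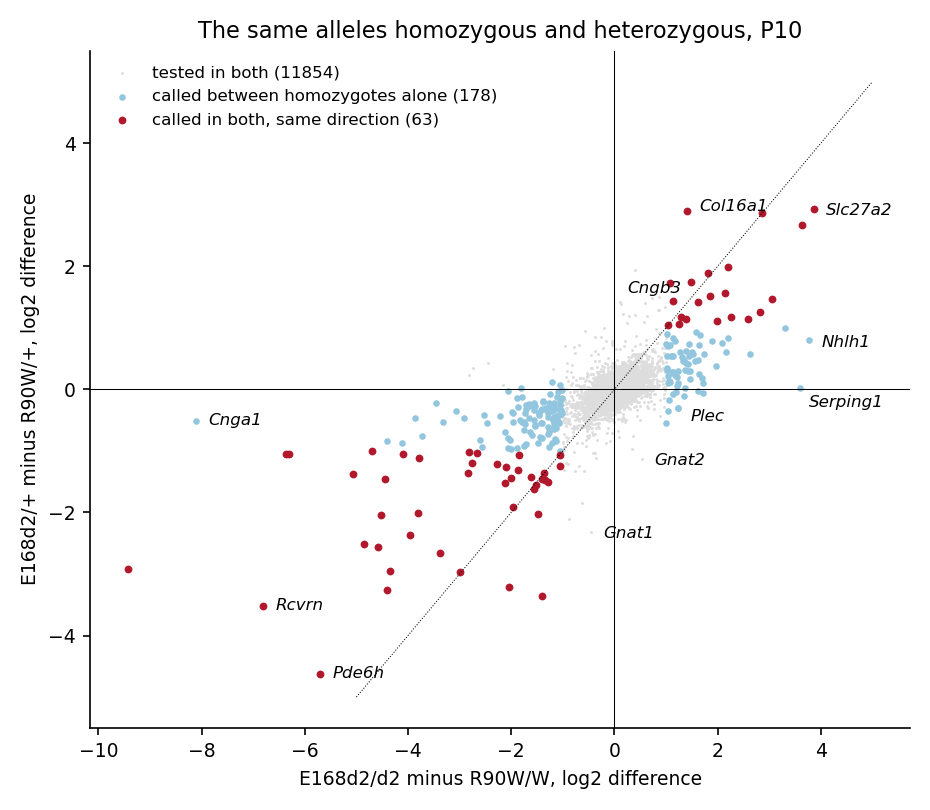
Log2 difference between the E168d2 and R90W alleles in homozygotes (x axis) and heterozygotes (y axis) at P10 for the 11854 genes tested in both, with genes called in homozygotes alone in blue, genes called in both in red and a dotted line of equal differences. The 42 genes called lower and 21 called higher in both are in red, with *Rcvrn* at -6.81 and -3.52, while *Cnga1* and *Serping1* lie near the horizontal line.

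WT retinas at P21 were compared with WT at P10 to show how the called genes move with age. Of 12203 genes tested, 491 were called lower at P21 (4.02%) and 587 higher (4.81%), around a median difference of -0.17, and trimmed mean scaling moved this split to 345 and 779. Of the 151 genes lower in *E168d2/d2* that were tested, 35 rose with age in WT (23.2%) and 11 fell (7.28%). Of the 79 higher genes, 12 rose (15.2%) and 15 fell (19.0%). Among all genes tested in both, 3.50% rose and 3.90% fell. *Gnat1* and *Guca1a*, a guanylate cyclase activator, were among the rod genes with the largest rises with age (3.93 and 3.89), while *Slc27a2* fell by 3.43.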

How the data were processed

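Whole-retina mRNA was sequenced in 30 libraries (10 groups of 3). The protocol names both poly(A) mRNA capture and ribosomal RNA depletion, and RNA integrity of at least 8. Per the submitters' processing notes, TopHat2 2.0.5, HTSeq 0.6.1p1 and the mm9 build were used, and the authors deposited CPM per gene and library. Their table also holds 32 columns of their own edgeR 3.6.8 comparisons (log fold change, mean level, p-value and FDR), which were not used; the 30 library columns were all read (0 left out). Of the gene symbols, 20 had been turned into dates by a spreadsheet and were kept as unnamed rows.

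CPM were taken to log2(CPM + 0.1) from the deposited values, genes with at least 5 CPM in all 3 libraries of either group were kept, and the groups were compared with limma 3.58.1 (R 4.3.3, empirical Bayes with a mean-variance trend, two-sided, Benjamini-Hochberg over all genes tested). The difference is *E168d2/d2* minus *R90W/W*, and the log2 scale understates changes of low genes. Calls needed an adjusted p of at most 0.05 and a change of at least 2-fold. Percent of WT is the ratio of mean CPM. The values came in steps that gave whole reads for 100% of values under 1000 reads (tolerance 0.1 read), from which depth was estimated. Replicates are pools of retinas, from a male and a female mouse by the study's methods, so p-values measure the spread between these pools. Replicates differed by more than sampling noise, with chi-square per degree of freedom of 9.59 to 14.4 in *E168d2/d2*, 2.33 to 5.07 in *R90W/W* and 1.87 to 4.10 in WT. The fit was tested on simulated data.

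Genes were named by rule: *Crx*, tested members of the rod, cone, visual cycle and regulator lists, the 10 largest rises and falls, up to 4 called members of any other list, 6 with *R90W/W* farther from WT on the same side, 6 on opposite sides of WT, and the 4 largest in each direction called in both zygosities. *Opn1mw*, *Ppara*, *Pax7* and the library checks were named after their values were seen. Some genes the rule names are not reported here. The comparison and lists were chosen with earlier results of these data known. Positions come from GENCODE vM1 (mm9). Figures were drawn with matplotlib 3.10.9.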

Additional observations from a re-analysis of the deposited data

Results flagged for a closer look

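Among the 278 called or named genes tested in both zygosities, 6 (2.16%) passed the adjusted p between homozygotes and had every library move one way between the alleles in homozygotes and the opposite way in heterozygotes, and the difference between zygosities was not tested for any of them. Over all 11854 genes tested in both, 101 (0.852%) showed this pattern. It requires groups apart and past the adjusted p between homozygotes, which 270 of the 278 met, against 3907 of the 11854. These percentages therefore do not compare like sets. *Gnat2*, the cone transducin alpha subunit, was higher in *E168d2/d2* than in *R90W/W* by 0.53 and lower in *E168d2/+* (23.1, 23.3 and 23.2 CPM) than in *R90W/+* (46.1, 51.1 and 55.6 CPM), with a heterozygous difference of -1.125. *Samd7*, a rod repressor, was at -0.38 in homozygotes and 0.456 in heterozygotes (594, 606 and 702 CPM against 516, 419 and 452 CPM). *Gnb3*, the cone transducin beta subunit, was at -0.26 in homozygotes and 0.236 in heterozygotes, where the adjusted p was 0.078. *Plec*, which encodes the linker protein plectin, was called at 1.23 in homozygotes and was at -0.307 in heterozygotes. *Rgl3* was at 1.04 and -0.347 (heterozygous adjusted p = 0.16), and *Gm4792* at 1.002 and -0.544 (heterozygous adjusted p = 0.076), so neither heterozygous difference passed.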

How the results depend on the processing

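Between homozygotes, the counts ran from 146 to 178 lower and 94 to 117 higher genes over 16 alternatives (pseudocounts of 1 and 0.01, a 1 CPM filter or none, trimmed mean, median and quantile scaling, all P10 groups in a single fit, no variance trend, a replicate block and each library left out), and without genes of the X or Y chromosome, an alternative added after the values were seen, they were 149 and 104. Leaving out 1 library gave 155 to 170 lower and 106 to 117 higher genes. In all 16 alternatives, 139 of the 154 lower and 87 of the 108 higher genes stayed called. Replicate letters were shared between groups but did not pair the libraries (correlation of deviations 0.12, -0.07 and 0.13 for A, B and C), and the replicate block gave 154 and 108 calls, with 71 and 41 in heterozygotes and 492 and 587 with age. Of the named genes under each alternative, 1595 values stayed on their side of the call limit with the same sign, 15 fell below it, 4 passed it, 2 changed sign without a call (*Rdh11*, around 0) and 0 called values reversed. *Gnb1*, *Sox9*, *Rpe65* and *Dnahc9* were lost under at least 1 alternative. At 5 CPM a value rested on 87.1 to 131 reads in the 6 libraries. The planned count tests (edgeR quasi-likelihood, edgeR exact and DESeq2) were not run, since the table holds expressed genes and too few of its values lay near the lowest read steps to check the recovered counts.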

Other observations

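Among the 49 genes under 25% of WT in *E168d2/d2* and at 50% or more in *R90W/W*, 47 were tested and all 47 were called lower, with the same values having set both the limit and the call. Among the 38 under 25% in both, 18 were tested and 11 called lower. Of the 4 genes under 25% in *R90W/W* and at 25% to 50% in *E168d2/d2*, named after their values were seen, *Il9r* was at 4.04% of WT in *R90W/W* and 29.4% in *E168d2/d2*, with 0.269 and 1.96 CPM, and *Arhgap10* was at 23.98% and 31.6%. The other two, *Loxl4* and *Dnm3os*, were below 5 CPM in both mutants.

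Over the 11854 genes tested in both zygosities, the homozygous and heterozygous differences had a Pearson r of 0.66 and a Spearman coefficient of 0.51. The points are genes measured in the same libraries and are not independent replicates.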
